A study of Mus musculus with 18 samples.

Results

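Genes known from mast cells and basophils, namely Gata2, Gata1, Kit, Cpa3, Ms4a2, Fcer1a, Hdc, Mcpt8, Il1rl1 and Cd200r3, were followed through RNA-seq of mouse bone marrow-derived macrophages (BMDMs). They were 10 of the 50600 genes in the count table, found by their Ensembl identifiers. They were chosen by measured values, because the levels of Gata2 and Kit were higher in unstimulated IRF5 KO cultures than in unstimulated WT cultures, so that contrast is described below without a test. Of the 10 genes, 7 passed the filter on low counts and were tested together with the other genes, 15663 in all. Gata1, Ms4a2 and Fcer1a did not pass, with at most 8, 7 and 2 counts in any library.

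BMDMs were grown from marrow with GM-CSF, a cytokine that drives myeloid growth, for 8 days. WT cultures and cultures labelled IRF5 KO, which are meant to lack the transcription factor IRF5, were each studied in 3 states with 3 libraries per group and 18 libraries in all. The states were unstimulated, 2 h of 100 ng/ml lipopolysaccharide (LPS, the bacterial ligand of Toll-like receptor 4) after 1 h with the vehicle DMSO, and the same LPS treatment after 1 h with 3.5 µM defactinib, an inhibitor of the kinases PYK2 and FAK. The sample titles give DMSO for the unstimulated cultures, whereas the column names of the count table carry UT in its place. The labels give no strain, age or number of mice. The methods of the study name male C57BL/6J mice without tying them to these libraries, and how the IRF5 KO marrow was made is not given in the sources used here. All groups share the GM-CSF culture. The study speaks of its replicates in general as biological, such as mice or cells, but neither labels nor methods say whether the 3 libraries of a group came from separate mice or cultures, so p-values measure the spread between these libraries, which may be technical.

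The libraries held 39282181 to 61949143 counted read pairs. In CPM (counts-per-million of the TMM-scaled total of each library), 3 counts corresponded to 0.0467 to 0.0797. A pair of libraries stood apart from the others of their groups. The third IRF5 KO LPS DMSO library differed from the other two with a chi-square of 441 and 425 per gene (counting noise alone gives about 1), and the third WT LPS defactinib library with 140 and 183, against 2.33 to 84.1 for every other pair. Whether either carries the right label cannot be checked from these counts, so values of these groups that rest on them hold only if the labels are right. Both are kept in the values below. For the members, calls that change with them are given with and without both. For the other genes only list counts are given without both, and single differences use all libraries and may rest on them.

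Irf5 itself was counted in every library. Its level was 587, 606 and 650 CPM in unstimulated WT libraries and 335, 397 and 364 CPM in unstimulated libraries labelled IRF5 KO. Under LPS with DMSO it was 434, 475 and 443 CPM in WT and 435, 431 and 345 CPM in IRF5 KO, and the groups overlapped (log2 difference -0.16 ± 0.16 SE, adjusted p = 0.428). After LPS with defactinib it was 213, 234 and 379 CPM in WT and 364, 392 and 353 CPM in IRF5 KO, with overlap (0.42 ± 0.16, adjusted p = 0.0545). The table sums reads over all exons of the gene, so it cannot separate a disrupted part from the rest, and these counts do not check the genotype labels. IRF5 KO below means libraries labelled so.

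In mast cells and basophils, GATA2 and GATA1 are transcription factors that maintain the lineage programme, and GATA2 also acts in blood stem and progenitor cells. KIT is the receptor for stem cell factor. Fcer1a and Ms4a2 encode the alpha and beta chains of the high-affinity IgE receptor, Il1rl1 the IL-33 receptor ST2, and Cd200r3 an activating receptor of the CD200 receptor family. Hdc encodes histidine decarboxylase, which makes histamine, and Cpa3 and Mcpt8 encode proteases stored in granules. Gata2, Kit, Hdc and Il1rl1 are not restricted to these cells, and macrophages can express Hdc and Il1rl1.

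A set of genes that narrowly mark mast cells and basophils was at or near 0 in these cultures. Of 14 such genes, listed after the values had been seen (Gata1, Cpa3, Ms4a2, Fcer1a, Mcpt8, Cma1, Mcpt1, Mcpt2, Mcpt4, Mcpt9, Tpsab1, Tpsb2, Tpsg1 and Prss34), 4 had no count in any library (Mcpt2, Mcpt4, Mcpt9 and Tpsab1), and 6 exceeded 3 counts in at least 1 library. Their summed level ranged from 0.372 to 2.40 CPM per library. By group it was 0.786 to 1.18 CPM in unstimulated WT, 0.558 to 1.03 CPM in unstimulated IRF5 KO, 0.904 to 2.11 CPM in WT after LPS, 1.62 to 2.40 CPM in IRF5 KO after LPS, 0.899 to 1.05 CPM in WT with defactinib and 0.372 to 0.739 CPM in IRF5 KO with defactinib. The 14 genes leave out Cd200r3, which was at 8.03 to 19.9 CPM over all libraries. Because they were picked with their values known, their low sum is a description and no test of a cell type. The label of a mast cell or basophil programme is therefore not used here, and the 10 genes are called by their leading members, Gata2 and Kit. In such bulk cultures, fewer cells of a type and less RNA per cell cannot be told apart.

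Because members differ in how their levels moved, the bases in front of their start sites are shown, taken from RefSeq on GRCm38.p6. All 10 genes matched, with 13 annotated starts, and 250 bases before each start were searched on both strands for the GATA words, which were AGATAA with its variant AGATAG as well as TGATAA with its variant TGATAG. They were also searched for an interferon regulatory factor word, GAAA followed after 2 free bases by the same letters. A GATA word was present before 7 of the 13 starts, against 26.5% of all 32851 promoter windows of that length. By gene it was 6 of 10, for which no share over all genes is given. The Kit windows, which begin at 75574737 and 75574741, share almost all their bases. The interferon regulatory factor word was present before none of the 13 starts and in 2.98% of all windows. The sequences run 5′ to 3′ along the gene, with GATA words in capitals, and neighbouring words may touch. Gata2 and Kit, the genes by which the group was chosen, are set beside 4 genes that hold GATA words.
Gata2, upstream start, chr6:88193641-88193890, plus strand: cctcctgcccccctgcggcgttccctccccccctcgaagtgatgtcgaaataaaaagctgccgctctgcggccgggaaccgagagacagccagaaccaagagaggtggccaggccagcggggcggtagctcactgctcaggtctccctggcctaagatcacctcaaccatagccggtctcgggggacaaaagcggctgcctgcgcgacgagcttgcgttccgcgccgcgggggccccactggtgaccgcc
Kit, upstream start, chr5:75574737-75574986, plus strand: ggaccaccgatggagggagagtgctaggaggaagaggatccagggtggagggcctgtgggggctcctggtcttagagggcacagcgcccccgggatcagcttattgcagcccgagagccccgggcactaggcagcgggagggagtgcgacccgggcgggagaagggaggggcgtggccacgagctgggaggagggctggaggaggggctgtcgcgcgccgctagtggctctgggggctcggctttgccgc
Il1rl1, upstream start, chr1:40429320-40429569, plus strand: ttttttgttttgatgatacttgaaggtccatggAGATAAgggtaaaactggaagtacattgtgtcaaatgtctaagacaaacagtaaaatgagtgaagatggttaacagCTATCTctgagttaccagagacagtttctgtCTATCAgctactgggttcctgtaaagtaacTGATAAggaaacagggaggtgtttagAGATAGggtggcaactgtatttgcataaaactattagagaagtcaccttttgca
Cd200r3, chr16:44943428-44943677, plus strand: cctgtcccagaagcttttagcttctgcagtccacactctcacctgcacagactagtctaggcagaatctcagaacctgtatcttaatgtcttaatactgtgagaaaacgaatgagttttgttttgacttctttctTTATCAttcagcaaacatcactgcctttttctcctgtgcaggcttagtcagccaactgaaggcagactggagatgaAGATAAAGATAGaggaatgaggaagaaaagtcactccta
Hdc, chr2:126618679-126618928, minus strand: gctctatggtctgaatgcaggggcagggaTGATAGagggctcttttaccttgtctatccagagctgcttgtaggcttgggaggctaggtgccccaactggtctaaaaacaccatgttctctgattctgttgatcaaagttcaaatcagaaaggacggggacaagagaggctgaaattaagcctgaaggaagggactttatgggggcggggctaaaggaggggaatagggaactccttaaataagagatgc
Cpa3, chr3:20242182-20242431, minus strand: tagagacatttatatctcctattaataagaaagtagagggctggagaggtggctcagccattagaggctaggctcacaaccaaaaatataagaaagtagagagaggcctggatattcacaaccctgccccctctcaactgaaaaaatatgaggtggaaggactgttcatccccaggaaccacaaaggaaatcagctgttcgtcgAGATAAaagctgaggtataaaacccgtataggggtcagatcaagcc
Gata2 and Kit held none of these words before either of their annotated starts. Before the upstream start of Il1rl1 there were 5 words, before its downstream start 1, and before Cd200r3 there were 3, of which AGATAA and AGATAG adjoin 39 to 28 bases ahead of the start. Hdc held TGATAG 221 bases ahead and Cpa3 held AGATAA 46 bases ahead. Ms4a2 held 3 words and Fcer1a 1, and Gata1 and Mcpt8 held none. These are matches of letters in short windows and say nothing about binding.

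Gata2 was called in 4 of the 5 comparisons that used no unstimulated library, Il1rl1, Cpa3 and Cd200r3 in 1 each, and Kit, Hdc and Mcpt8 in none. After LPS with DMSO, 1 of the 7 tested members was called between IRF5 KO and WT (false discovery rate below 0.05 and more than 2-fold), beside 25.8% of all tested genes. After LPS with defactinib 2 of 7 were called, beside 17.3% of all genes. Defactinib against DMSO called 2 of 7 in WT, beside 29.1% of all genes. In IRF5 KO edgeR called 0 of 7, beside 0.919% of all genes, with 2 of 7 at an unadjusted p below 0.05 and 0 called by DESeq2 or limma-voom. The effect of defactinib differed between the genotypes for 2 of 7 (Gata2 and Cd200r3), beside 22.8% of all genes. Without both libraries that stood apart it differed for Gata2, Hdc and Il1rl1, and the share of all genes in that fit is not given. With 7 genes, these shares say nothing about the members as a group beyond the background, and the results below are about single genes. The libraries of the genotypes did not overlap for 5 of 7 members unstimulated, beside 51.4% of all genes, a contrast that chose the genes. They did not overlap for 4 of 7 after LPS with DMSO, beside 50.9%, and for 1 of 7 with defactinib, beside 51.5%. The LPS groups with DMSO enter both the genotype and the defactinib comparisons, so these comparisons share libraries.

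**Figure D1:**
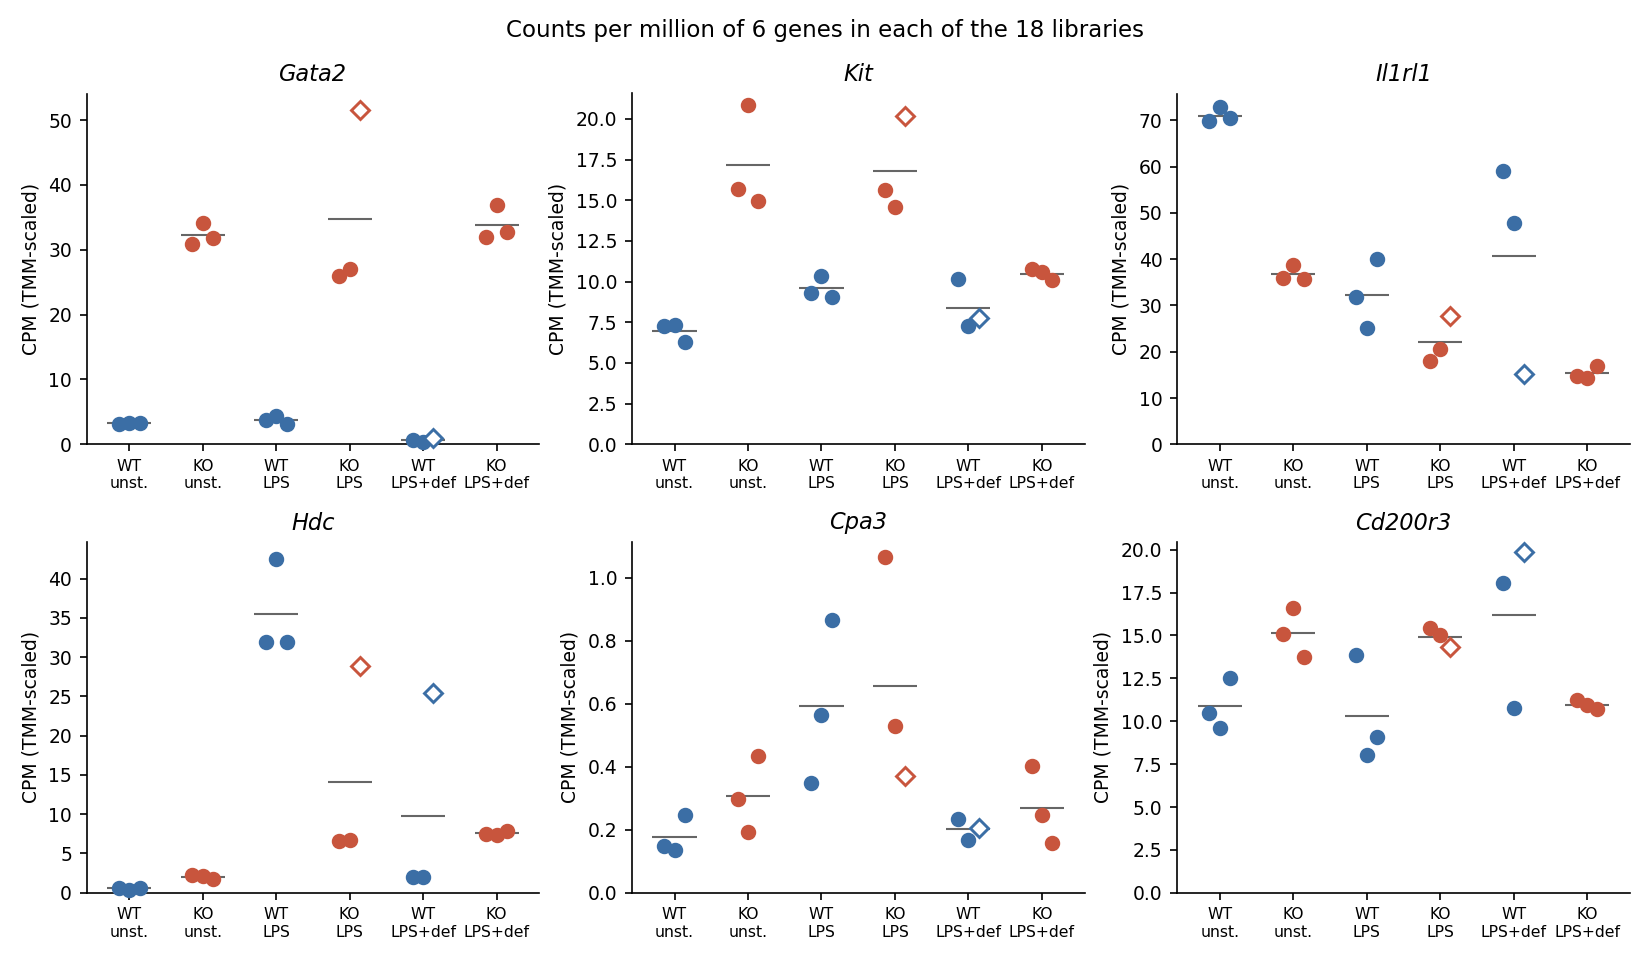
CPM (TMM-scaled, linear axis from 0) of 6 genes in each of the 18 libraries, by group (unst., unstimulated; def, defactinib; KO, IRF5 KO), with WT in blue and IRF5 KO in red. Points are libraries, grey lines group means and open diamonds the 2 libraries that stood apart. All 9 IRF5 KO libraries sit between 25.9 and 51.5 CPM for Gata2, above all 9 WT libraries.

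Gata2 (ENSMUSG00000015053) lies on the plus strand of chromosome 6 at 88193891 to 88207032 (mm10). In unstimulated cultures its level was 3.16, 3.35 and 3.30 CPM in WT and 30.8, 34.1 and 31.9 CPM in IRF5 KO, the difference by which it was chosen (log2 3.30). After LPS with DMSO the WT libraries gave 3.73, 4.32 and 3.18 CPM and the IRF5 KO libraries 25.9, 27.0 and 51.5 CPM. All IRF5 KO libraries were above all WT libraries, and the highest was the library that stood apart. The difference was 3.22 ± 0.28 (log2 ± SE, n = 3 per group), or 9.30-fold, with an adjusted p of 4.19e-07 by edgeR's quasi-likelihood test. It was called under all 27 alternatives, with values from 2.82 to 3.50, and was 2.82 without both libraries.

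With defactinib, Gata2 fell in WT, and the effect differed from that in IRF5 KO. The WT libraries held 0.674, 0.313 and 0.899 CPM, from 29, 13 and 35 counts, and the IRF5 KO libraries 32.0, 37.0 and 32.7 CPM. The WT values lay under those of all other groups. Against LPS with DMSO, Gata2 fell by 2.58 on the log2 scale in WT (SE 0.31, 5.96-fold lower, adjusted p = 6.16e-06), whereas in IRF5 KO the difference was -0.04 ± 0.25 (adjusted p = 0.943), and 0.36 without both libraries that stood apart. The difference between these effects was 2.53 ± 0.39 (adjusted p = 0.000146), called under all 27 alternatives with values from 2.18 to 3.27. IRF5 KO exceeded WT by 5.75 ± 0.32 (53.9-fold, adjusted p = 3.41e-09) with defactinib, from 5.42 to 6.09 under the alternatives.

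LPS itself moved Gata2 little, and these values carry no test because the unstimulated libraries chose the gene. The log2 difference from unstimulated was 0.19 in WT, where scaling by library size alone gave -0.18, and 0.11 in IRF5 KO, where the value without the library that stood apart was -0.29. Ordered by mean, Gata2 was at 34.8 ± 14.5 CPM (SD) in IRF5 KO after LPS, 33.9 ± 2.68 CPM with defactinib and 32.3 ± 1.68 CPM unstimulated, which overlapped. WT followed at 3.74 ± 0.573 CPM after LPS and 3.27 ± 0.0953 CPM unstimulated, which overlapped too, and 0.629 ± 0.296 CPM with defactinib, which overlapped neither.

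Gata1 (ENSMUSG00000031162, chromosome X), the second GATA factor of the lineage, was counted 50 times in the 18 libraries together. The highest level was 0.205 CPM, in a WT LPS DMSO library, and 3 libraries had no count. It was not tested.

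Among the receptors, Kit (ENSMUSG00000005672, chromosome 5, 75574916 to 75656722, plus strand) differed between the genotypes less than Gata2. It was at 7.28, 7.31 and 6.29 CPM in unstimulated WT and 15.7, 20.8 and 14.97 CPM in unstimulated IRF5 KO, the values by which it was chosen (log2 1.3). After LPS with DMSO it was 9.32, 10.4 and 9.05 CPM in WT and 15.6, 14.6 and 20.2 CPM in IRF5 KO. These groups did not overlap, and the log2 difference of 0.81 ± 0.16 passed the false discovery rate (adjusted p = 0.000766) but, at 1.75-fold, not the fold threshold. Scaled by library size alone it was 1.08 and was called. Without both libraries that stood apart it was 0.66.

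With defactinib the Kit levels of the genotypes overlapped. The WT libraries were at 10.2, 7.24 and 7.78 CPM and the IRF5 KO libraries at 10.8, 10.6 and 10.1 CPM. The difference of 0.32 ± 0.16 did not pass the test (adjusted p = 0.137). In IRF5 KO, Kit was lower with defactinib than with DMSO by 1.6-fold (log2 -0.68 ± 0.16, adjusted p = 0.0362, without overlap), which passed the false discovery rate alone, and in WT the difference was -0.19 ± 0.16 (adjusted p = 0.330). The contrast of these effects, -0.49 ± 0.23, did not pass (adjusted p = 0.105), so it was not shown that defactinib acted on Kit in one genotype more than in the other. From unstimulated to LPS, described without a test, Kit differed by 0.46 in WT and -0.03 in IRF5 KO.

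Il1rl1 (ENSMUSG00000026069, chromosome 1, 40429570 to 40465415, plus strand), whose receptor ST2 binds IL-33, moved the other way. In unstimulated cultures it was at 69.8, 72.9 and 70.5 CPM in WT and 35.8, 38.7 and 35.6 CPM in IRF5 KO, a described log2 difference of -0.95. Under LPS with DMSO the values were 31.9, 25.1 and 40.1 CPM in WT and 18.03, 20.5 and 27.7 CPM in IRF5 KO. LPS lowered Il1rl1 in WT by 1.13 on the log2 scale (SE 0.33, called, adjusted p = 0.0115), and the call was lost without the second WT LPS DMSO library (-0.99, adjusted p = 0.0529, the highest over the alternatives, which ran from -1.52 to -0.99). In IRF5 KO the groups did not overlap, but the difference of -0.73 ± 0.33 did not pass (adjusted p = 0.0891). After LPS the genotypes overlapped (-0.55 ± 0.33, adjusted p = 0.171). Without both libraries that stood apart these differences passed the false discovery rate alone, at -0.93 for LPS in IRF5 KO (adjusted p = 1.86e-05, range 1.86e-05 to 0.264 over the alternatives) and -0.75 between the genotypes (adjusted p = 0.000170, range 0.000170 to 0.508).

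With defactinib the WT libraries held 59.1, 47.9 and 15.2 CPM of Il1rl1, and the IRF5 KO libraries 14.7, 14.3 and 16.9 CPM. The lowest WT value belonged to the library that stood apart and lay within the IRF5 KO range. Il1rl1 was lower in IRF5 KO than in WT by 1.41 on the log2 scale (SE 0.33, 2.66-fold, adjusted p = 0.00389), called under all 27 alternatives from -1.82 to -1.09, and -1.81 without both libraries. In WT, defactinib against DMSO gave 0.33 ± 0.33 (adjusted p = 0.399), and 0.72 without both, which passed the false discovery rate alone (adjusted p = 0.000134, range 0.000134 to 0.985 over the alternatives). In IRF5 KO it gave -0.53 ± 0.33 (adjusted p = 0.349). The difference between the genotypes was -0.86 ± 0.47 (adjusted p = 0.161) and was called without both libraries (-1.06, adjusted p = 0.000161, with adjusted p-values from 0.000161 to 0.356 over the alternatives).

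Cd200r3 (ENSMUSG00000036172, chromosome 16, 44943678 to 44981380, plus strand) belongs to a family of close copies, and reads shared with other members of the family cannot be assigned with certainty. It was at 10.5, 9.59 and 12.5 CPM in unstimulated WT and 15.1, 16.6 and 13.8 CPM in unstimulated IRF5 KO. Under LPS with DMSO it was at 13.9, 8.03 and 9.07 CPM in WT and 15.5, 15.004 and 14.3 CPM in IRF5 KO, without overlap (0.53 ± 0.21, adjusted p = 0.0463, below 2-fold). With defactinib the order turned, with 18.05, 10.8 and 19.9 CPM in WT and 11.2, 10.95 and 10.7 CPM in IRF5 KO. The groups overlapped, and the difference of -0.57 ± 0.21 passed the false discovery rate alone (adjusted p = 0.0478). Defactinib gave 0.65 ± 0.21 in WT (adjusted p = 0.0163) and -0.45 ± 0.21 in IRF5 KO (adjusted p = 0.217). Without both libraries that stood apart, neither the genotype difference with defactinib (-0.39, adjusted p = 0.130, range 0.00430 to 0.170 over the alternatives) nor the effect in WT (0.48, adjusted p = 0.0519, range 0.00140 to 0.0686) passed. The difference between these effects was called, at -1.10 ± 0.30 (adjusted p = 0.00939). Without the third WT LPS defactinib library, and without both libraries, it was -0.95, and without the second WT LPS DMSO library -0.98, inside the fold threshold, with adjusted p-values from 0.000956 to 0.0322 over the alternatives.

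The IgE receptor chains were close to 0. Fcer1a (ENSMUSG00000005339, chromosome 1) had 6 counts in 4 of the 18 libraries and Ms4a2 (ENSMUSG00000024680, chromosome 19) had 52 counts in 17, with a highest level of 0.137 CPM in the IRF5 KO LPS DMSO group. The third chain, Fcer1g, which macrophages share, was at 194 to 431 CPM. Neither member was tested.

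Hdc (ENSMUSG00000027360, chromosome 2, 126593667 to 126619299, minus strand), the histamine-forming enzyme, responded most to LPS. It was at 0.655, 0.389 and 0.619 CPM in unstimulated WT and at 31.9, 42.5 and 31.9 CPM after LPS with DMSO. It rose by 6.0 ± 0.97 on the log2 scale (64.0-fold, adjusted p = 0.000143), called under 26 of 27 alternatives (DESeq2, the other, gave no adjusted p). In IRF5 KO it was at 2.23, 2.12 and 1.73 CPM unstimulated and 6.64, 6.71 and 28.9 CPM after LPS. All LPS libraries were above all unstimulated libraries, and the highest was the library that stood apart. The rise of 2.80 ± 0.82 was called (adjusted p = 0.0177), under 20 of 27 alternatives. Without that library it was 1.71 and not called (adjusted p = 0.107), and without both libraries that stood apart it was 1.71 and called (adjusted p = 2.63e-08), the ends of the range over the alternatives. Of the 5 members tested for LPS, 3 were called in WT (Hdc and Cpa3 higher, Il1rl1 lower), beside 21.3% of all genes, and 1 in IRF5 KO (Hdc), beside 13.3%. Whether the response to LPS differed between the genotypes was not tested, since that test would contain the unstimulated contrast between the genotypes, by which the group of genes was chosen.

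The genotype difference of Hdc turned with the state of the cultures and with both libraries that stood apart. In unstimulated cultures Hdc was higher in every IRF5 KO library than in every WT library (described log2 difference 1.87). After LPS with DMSO it was lower in all IRF5 KO libraries, by 1.33 ± 0.76 (adjusted p = 0.154), which did not pass. Without both libraries it was -2.41 and was called (adjusted p = 8.53e-11, with a range from 8.53e-11 to 0.376 over the alternatives). With defactinib the WT libraries were at 2.07, 1.95 and 25.5 CPM and the IRF5 KO libraries at 7.51, 7.37 and 7.89 CPM. The genotypes differed by -0.37 ± 0.76 (adjusted p = 0.736), and by 1.92 without both (adjusted p = 3.00e-08, with a range from 3.00e-08 to 0.885).

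In the first and second WT libraries with defactinib, Hdc was thus near 2 CPM, against over 31 CPM in each WT library with DMSO, while the third was at 25.5 CPM. The fitted effect of defactinib in WT was -1.85 ± 0.77 and just missed the threshold (adjusted p = 0.0522). It was called under 6 of 27 alternatives, a block for the replicate number among them. It was -4.14 without both libraries and was called (adjusted p = 2.21e-13, with a range from 2.21e-13 to 0.199). In IRF5 KO the effect was -0.90 ± 0.76 (adjusted p = 0.508), and 0.18 without both. The difference between these effects was 0.96 ± 1.07 and did not pass (adjusted p = 0.509). It was called without the third WT LPS defactinib library (3.21, adjusted p = 0.00211) and without both (4.32, adjusted p = 9.74e-12), with adjusted p-values from 9.74e-12 to 0.774 over the alternatives.

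Cpa3 (ENSMUSG00000001865, chromosome 3, 20215620 to 20242181, minus strand), the mast cell carboxypeptidase, was counted 298 times in all. It was at 0.150, 0.135 and 0.247 CPM in unstimulated WT, 0.348, 0.563 and 0.864 CPM after LPS with DMSO, and 0.233, 0.168 and 0.206 CPM after LPS with defactinib. The LPS DMSO libraries were above both other WT groups. The rise with LPS, 1.73 ± 0.50 (3.32-fold, adjusted p = 0.0108), and the fall with defactinib, -1.53 ± 0.51 (2.89-fold, adjusted p = 0.0175), were called, the rise from 8 to 34 and the fall from 7 to 34 counts per library. Both calls were lost without the third WT LPS DMSO library (1.35, adjusted p = 0.0631, and -1.14, adjusted p = 0.0924). The rise was also lost without the second unstimulated WT library (1.56, adjusted p = 0.0506) and the fall without the second WT LPS defactinib library (-1.41, adjusted p = 0.0589). Over the alternatives the adjusted p-values ran from 0.00434 to 0.0631 for the rise and from 0.00983 to 0.0924 for the fall. In IRF5 KO it was at 0.296, 0.192 and 0.433 CPM unstimulated, 1.07, 0.530 and 0.372 CPM after LPS and 0.401, 0.246 and 0.159 CPM with defactinib, and these groups overlapped. LPS gave 1.08 ± 0.47 there (adjusted p = 0.0799) and defactinib -1.24 ± 0.48 (adjusted p = 0.139), neither called. Without both libraries that stood apart both were called, at 1.38 (adjusted p = 0.0165, range 0.0165 to 0.431 over the alternatives) and -1.52 (adjusted p = 0.0408, range 0.0408 to 0.371). The differences between the genotypes did not pass after LPS (0.15 ± 0.46, adjusted p = 0.808) or with defactinib (0.44 ± 0.52, adjusted p = 0.547).

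Mcpt8 (ENSMUSG00000022157, chromosome 14), a basophil protease from a cluster of similar genes, was counted 143 times in all, at 0.0385 to 0.477 CPM. It was called in none of the 7 comparisons by edgeR, DESeq2 or limma-voom, and the widest difference, -1.36 ± 0.72 for defactinib in IRF5 KO, had an unadjusted p of 0.0768. At 2 to 22 counts per library its standard errors were 0.69 to 1.07, so a 2-fold difference was not detectable at this depth.

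**Figure D2:**
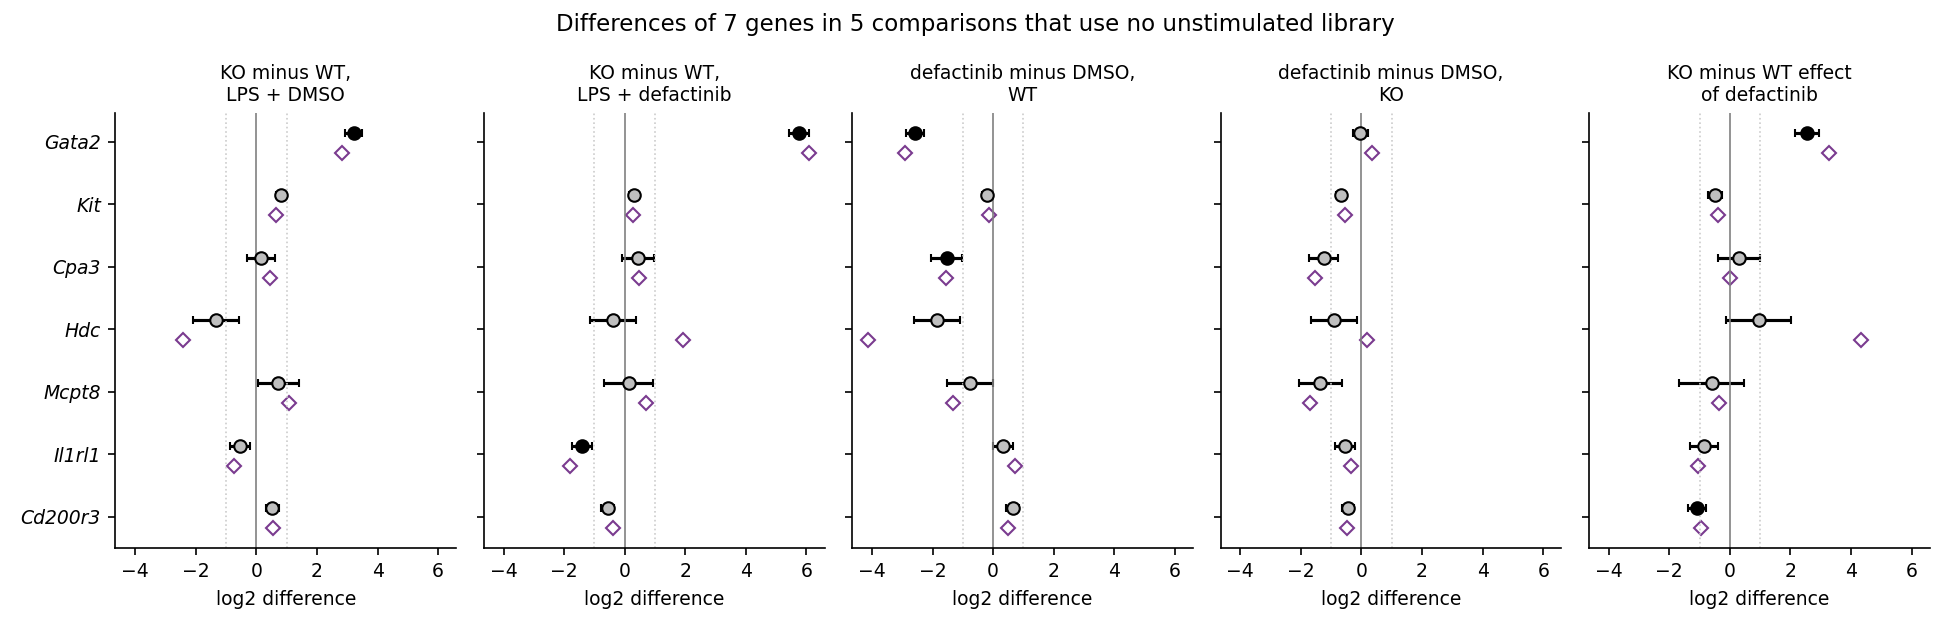
Log2 differences of the 7 tested genes in 5 comparisons that used no unstimulated library, with circles for all libraries (bars, SE; black, called; grey, not called) and open diamonds for the value without the 2 libraries that stood apart. Dotted lines mark the fold threshold. Gata2 is called in every panel but defactinib in IRF5 KO, and Hdc is the gene whose value moves most between circle and diamond.

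Per exon length, the order of levels changed with the group. In unstimulated WT, Il1rl1 led with 10.3 ± 0.235 RPKM (reads scaled to exon length and library total, mean ± SD, n = 3), above Cd200r3 (1.82 ± 0.252), Kit (0.781 ± 0.0652) and Gata2 (0.606 ± 0.0177). In unstimulated IRF5 KO, Gata2 at 5.98 ± 0.312 RPKM was above Il1rl1 at 5.33 ± 0.248 RPKM without overlap. Cd200r3 (2.53 ± 0.237) and Kit (1.93 ± 0.359) followed and overlapped each other. In WT after LPS, Hdc (5.55 ± 0.963) and Il1rl1 (4.70 ± 1.08) led and did not differ beyond their spread. With defactinib Il1rl1 had the highest mean in WT (5.91 ± 3.31), but in the third library, which stood apart, Hdc (3.99) and Cd200r3 (3.32) were above it (2.20). In IRF5 KO Gata2 led (6.28 ± 0.496). Cpa3 stayed at or below 0.432 RPKM and Mcpt8 at or below 0.360 RPKM in every group mean, and Gata1, Ms4a2 and Fcer1a below both.

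**Figure D3:**
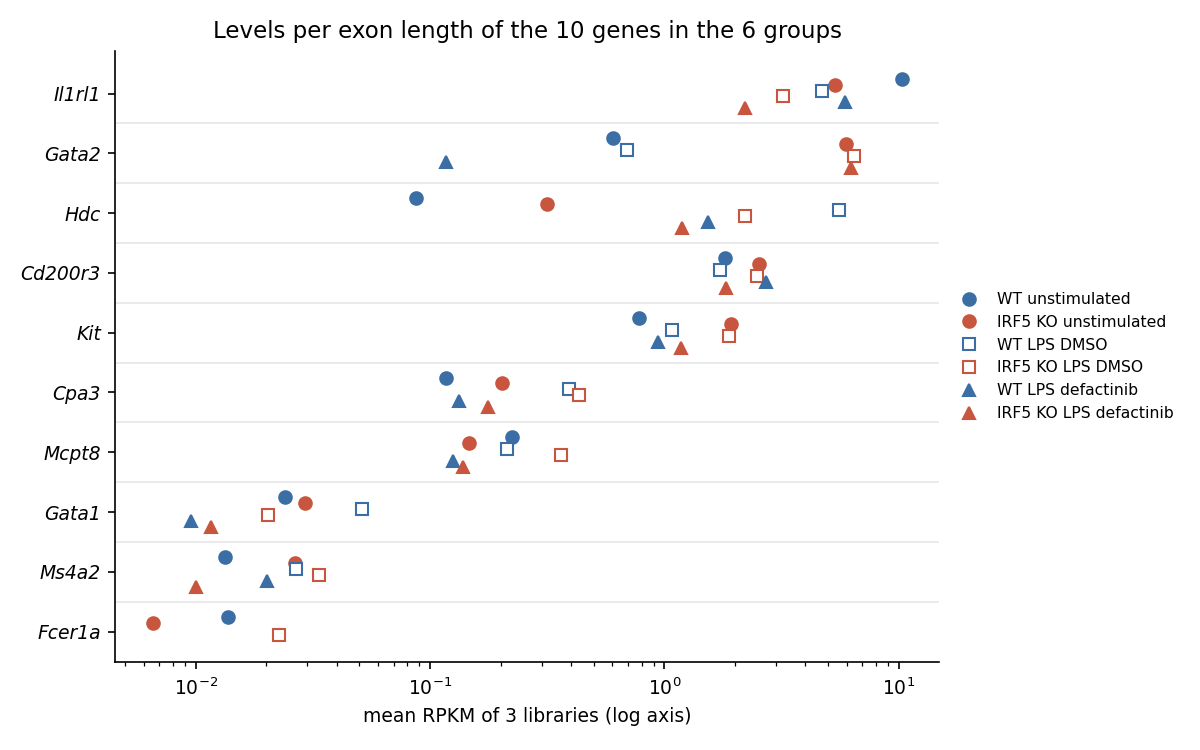
Mean RPKM of 3 libraries per group on a log axis for the 10 genes, with WT in blue and IRF5 KO in red, circles for unstimulated, open squares for LPS with DMSO and triangles for LPS with defactinib. Group means of 0 (Fcer1a in 3 groups) are not drawn. Gata2 spans from 0.117 RPKM in WT with defactinib to 6.45 RPKM in IRF5 KO after LPS.

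Across the 18 libraries the members did not move as a block. As a description over libraries that share groups and treatments, Pearson's r of log2 CPM was 0.75 between Gata2 and Kit, 0.54 between Cpa3 and Hdc, and -0.66 between Hdc and Il1rl1. For Gata2 and Il1rl1 it was -0.49, and for Gata2 and Hdc 0.12. The genes whose levels followed Gata2 most closely were Gnb3 (r = 0.96), Cyp1b1 (0.94), Mef2c (0.94), Retreg1 (0.93) and Il22 (0.93), and those that followed Kit were Cpm (0.94), Cebpe (0.91), Myh10 (0.91), Bend4 (0.91) and Gimap9 (0.89). Without the third IRF5 KO LPS DMSO library, Cyp1b1, Retreg1 and Il22 ranked 6, 8 and 10 for Gata2. Cyp1b1, a cytochrome P450 enzyme, was at 1.53 CPM in unstimulated WT and 142 CPM in unstimulated IRF5 KO on average, and at 2.37 and 76.6 CPM after LPS. Cebpe, a transcription factor of granulocyte maturation, was at 0.648 and 9.38 CPM unstimulated and at 1.27 and 7.64 CPM after LPS. The IRF5 KO libraries after LPS ran from 39.7 to 149 CPM for Cyp1b1 and from 4.97 to 12.5 CPM for Cebpe. The highest value of each belonged to the library that stood apart. These likenesses were found over all libraries, including the unstimulated ones that chose Gata2 and Kit.

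Genes that act with the members were read from lists of the same biology. Each pair of values below gives the log2 difference IRF5 KO minus WT (± SE) or the means of IRF5 KO against WT, first after LPS with DMSO and then after LPS with defactinib. These values use all libraries and are not given without the libraries that stood apart. Counts of called genes stand beside 25.8% of all tested genes in the first comparison and 17.3% in the second, called in either direction, and nothing particular to a list is read from them. Of 20 haematopoietic regulators, all tested, 4 were higher and 5 lower in IRF5 KO than in WT after LPS with DMSO, and 3 higher and 1 lower with defactinib. Without both libraries that stood apart the counts were 2 and 9, and 6 and 2. Bhlhe40, a transcription factor that GM-CSF induces, was higher in both comparisons, by 1.65 ± 0.24 and 2.92 ± 0.26. Gfi1b, a repressor of erythroid and megakaryocytic cells, was lower in both, with means of 0.267 against 1.62 CPM and 0.152 against 0.654 CPM. Spi1, the PU.1 gene that macrophages need, was at 275 against 267 CPM and 276 against 252 CPM and was not called. Id2 was at 397 against 695 CPM after LPS (-0.81, below the fold threshold) and higher with defactinib (1.46 ± 0.20).

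Of 17 granule genes, 7 were tested, with 1 higher and 2 lower in IRF5 KO after LPS with DMSO, and 0 higher and 2 lower with defactinib, the same counts as without both libraries that stood apart. Lamp1 and Srgn, which were among the leading genes by level, belong to the lysosomes and granules of many cells and stayed within 2-fold, so that they were not called, although Lamp1 (0.53 and 0.56) passed the false discovery rate in both comparisons and Srgn in the first (-0.65, adjusted p = 0.000886). Mcpt1, a mast cell chymase, was lower in both comparisons from few reads, at 0.00808 against 0.247 CPM and 0.0224 against 0.416 CPM on average. Prss34, a basophil protease and one of the 14 defining genes, named after its values were seen, was higher after LPS (1.80 ± 0.64, adjusted p = 0.0274) at 0.820 against 0.236 CPM, and not called with defactinib (0.07 ± 0.75). Of 17 genes of IgE receptor signalling, all tested, 1 was higher and 3 lower after LPS with DMSO, and 1 higher and 1 lower with defactinib. Without both libraries the counts were 2 and 3, and 2 and 1. Syk, the kinase that binds the receptor, was lower by 1.18 ± 0.24 after LPS and not called with defactinib (0.36 ± 0.24). Grap2, an adaptor, was lower in both, by 2.52 ± 0.30 and 1.97 ± 0.30. Rac2 and Fcer1g stayed within 2-fold in both.

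Of 19 cytokines and cytokine receptors, 17 were tested, with 2 higher and 4 lower in IRF5 KO after LPS with DMSO, and 3 higher and 1 lower with defactinib (1 and 5, and 3 and 2, without both libraries). Il33, which encodes the ligand of ST2, was at 47.8 to 88.7 CPM in WT and 3.61 to 5.60 CPM in IRF5 KO after LPS. It was at 60.9 to 123 CPM and 2.39 to 2.74 CPM with defactinib. It was thus lower in IRF5 KO in both comparisons, by 3.93 ± 0.30 and 5.24 ± 0.33, as its receptor gene Il1rl1 was with defactinib. Csf2, the GM-CSF gene, was higher in IRF5 KO in both, by 3.64 ± 0.60 and 2.98 ± 0.56. Il6 and Csf1 turned: Il6 was lower in IRF5 KO after LPS (-2.71 ± 0.91) and higher with defactinib (4.04 ± 0.98), and Csf1 likewise (-1.42 ± 0.35 and 1.86 ± 0.36). How far defactinib acted differently in WT and IRF5 KO was called for Il6 (6.76 ± 1.34, adjusted p = 0.00118) and Csf1 (3.28 ± 0.50, adjusted p = 0.000151). The GM-CSF receptor genes Csf2rb (0.68 and 0.44), Csf2rb2 (0.65 and 0.58) and Csf2ra (-0.46 and -0.51) stayed within 2-fold.

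Of 14 genes of lipid mediators and histamine handling, 12 were tested, with 2 higher and 0 lower after LPS with DMSO and 3 higher and 0 lower with defactinib (2 and 0 in each without both libraries). Ptgs1, a cyclooxygenase, was higher in IRF5 KO in both, by 1.98 ± 0.10 and 1.47 ± 0.10, and Alox5ap and Lta4h stayed within 2-fold. Of 18 surface receptors, 14 were tested, with 2 higher and 3 lower after LPS, and 5 higher and 0 lower with defactinib (2 and 3, and 6 and 1, without both libraries). The integrin genes Itga2b (2.68 ± 0.31 and 2.28 ± 0.31) and Itgb7 (2.38 ± 0.31 and 2.18 ± 0.30) were higher in both. Cd69, an activation marker, was lower after LPS (-1.66 ± 0.17) and higher with defactinib (3.27 ± 0.19). Cd9, Cd63 and Pilra, the leading genes by level, stayed within 2-fold. Over the 6 lists the median differences between the genotypes ran from -0.46 to 0.44 after LPS, where the median of all tested genes was 0.05, and from -0.17 to 0.25 with defactinib, where it was -0.02.

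**Figure D4:**
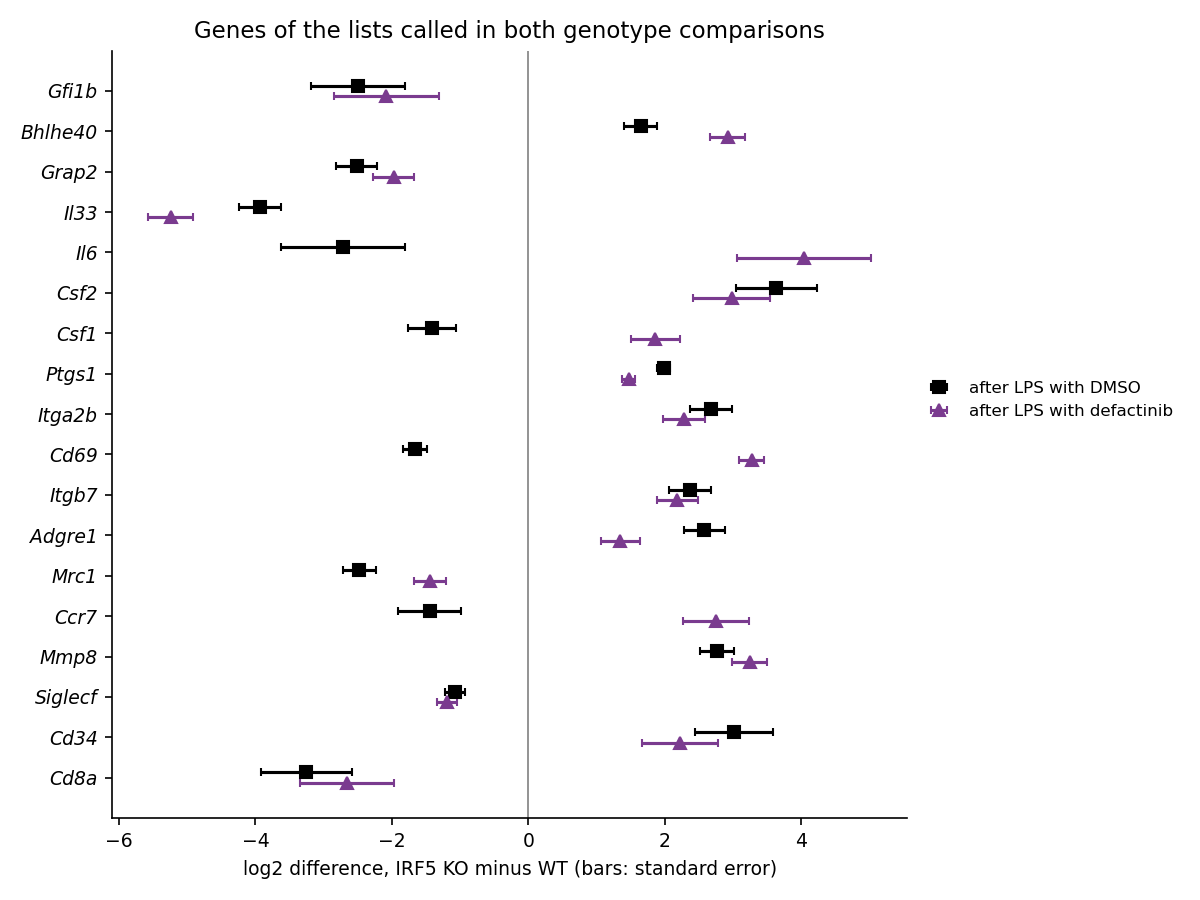
Log2 differences, IRF5 KO minus WT, of 18 list genes called both after LPS with DMSO (squares) and after LPS with defactinib (triangles), with bars for SE. Mcpt1 and Gata3, which were also called in both but had a group mean below 0.05 CPM, are not drawn. Il33 lies lowest in both comparisons, whereas Il6, Csf1, Cd69 and Ccr7 lie on opposite sides of 0.

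Some markers of other cell types differed between the genotypes, beside the same shares of 25.8% and 17.3% of all tested genes, and their part in the results above was not tested. Of 9 neutrophil markers, 4 were higher in IRF5 KO after LPS and 1 with defactinib, none lower (3 and 2 higher without both libraries). Their summed level was 254.7 to 470 CPM over the WT libraries and 1090 to 2722 CPM over the IRF5 KO libraries. Most of that sum was Mmp8, a collagenase, higher in IRF5 KO in both comparisons (1370 against 201 CPM and 2493 against 263 CPM). S100a8 and S100a9 were not called. Of 9 progenitor markers, 5 were tested, with 2 higher and 0 lower after LPS, and 1 higher and 1 lower with defactinib (2 and 1, and 1 and 1, without both libraries). Their sum was 10.9 to 29.8 CPM in WT and 29.4 to 41.1 CPM in IRF5 KO. The gap after LPS and with defactinib was carried mainly by Cd34, a marker of stem and progenitor cells and of mast cells, higher in IRF5 KO in both comparisons (28.2 against 3.49 CPM and 21.5 against 4.60 CPM). Sox4 was at 1.94 against 4.05 CPM after LPS (not called) and lower with defactinib (-2.13 ± 0.59), and Ly6a was not called in either. Of 7 eosinophil markers, all tested, 0 were higher and 1 lower after LPS, and 1 higher and 1 lower with defactinib (0 and 2, and 1 and 1, without both libraries). Siglecf was lower in both (-1.08 ± 0.14 and -1.19 ± 0.15), and Ccr3, named after its values were seen, was higher with defactinib at 0.333 against 0.0570 CPM. The eosinophil granule genes Prg2 (13.2 to 43.1 CPM) and Epx (4.67 to 20.8 CPM) were counted in every library of both genotypes.

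Of 10 macrophage markers, 1 was higher and 2 lower after LPS, and 2 higher and 1 lower with defactinib (1 and 3, and 2 and 1, without both libraries). Adgre1, the F4/80 gene, was higher in IRF5 KO in both comparisons (2.58 ± 0.30 and 1.35 ± 0.28) and Mrc1 lower (-2.48 ± 0.24 and -1.44 ± 0.23), while Lyz2, Ctsd and Csf1r stayed within 2-fold. Their sum was 11153.7 to 21444.7 CPM over all libraries. Of 11 dendritic cell markers, 10 were tested, with 1 higher and 1 lower after LPS, and 2 higher and 1 lower with defactinib (1 and 1, and 2 and 0, without both libraries). Ccr7 turned from lower (-1.45 ± 0.46) to higher (2.75 ± 0.48), and Cd74, H2-Aa and H2-Ab1 were not called. Dpp4, named after its values were seen, was higher after LPS (2.14 ± 0.24, adjusted p = 5.12e-06) at 49.9 against 11.3 CPM, and not called with defactinib (0.22 ± 0.23). Of 10 erythroid and megakaryocyte markers 2 were tested, Pf4 and Vwf, and Vwf was lower after LPS (-1.22 ± 0.16). Of 11 T, B and NK cell markers 6 were tested, with 2 higher and 1 lower after LPS, and 1 higher and 2 lower with defactinib, the same counts as without both libraries. Gata3, a GATA factor that T cells and type 2 innate lymphoid cells use, was at 1.195 against 0.312 CPM after LPS and 0.492 against 0.0241 CPM with defactinib (both called higher), Cd8a was lower in both, Cd4 was lower with defactinib, and Rora was not called. Cd79a, a B cell gene named after its values were seen, was called higher after LPS at 0.476 against 0.0341 CPM, although the libraries overlapped. Genes named in this way (Prss34, Ccr3, Dpp4 and Cd79a) were all higher in IRF5 KO. Other list genes, picked likewise, were called lower after LPS with DMSO. Of the regulators (4 higher, 5 lower), Mitf (-2.31 ± 0.28), Tal1 (-2.38 ± 0.58) and Stat5a (-2.00 ± 0.29) were lower. So were Itga4 (-2.58 ± 0.24, surface receptors, 2 higher and 3 lower), Mertk (-2.26 ± 0.22, macrophage markers, 1 and 2) and Il1rap (-1.52 ± 0.19, cytokine receptors, 2 and 4).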

How the data were processed

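RNA was sequenced in 18 libraries, 3 for each of 6 groups. The authors aligned the read pairs to mm10 with STAR and counted uniquely mapped pairs per gene, by strand, with featureCounts 1.6.3; the deposited values are raw counts for 50600 genes, beside exon lengths. Counts were analysed as deposited, with edgeR 4.0.16 (R 4.3.3): TMM scaling, filterByExpr (minimum count 10), and robust quasi-likelihood tests over all 18 libraries, with Benjamini-Hochberg adjustment over 15663 genes. Genes were called at an adjusted p below 0.05 and over 2-fold. Tests were tried on simulated data. CPM used TMM-scaled totals, and RPKM divides by exon length. Alternatives were DESeq2 1.42.0, limma-voom (limma 3.58.1), other scalings, filters, groups in the fit, a replicate block and leaving out libraries; leaving out both libraries that stood apart was chosen after seeing the data.

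Members and lists were chosen with earlier results of these data known, and the defining genes after their values were seen. Besides the members and Irf5, named genes were the 3 with the highest levels in each list, up to 5 list genes called in both genotype comparisons after LPS, those with the largest changes, and the 5 genes most like Gata2 and Kit. Vwf, Cd4 and Sox4 entered among the 3 with the highest levels. Prss34, Ccr3, Dpp4, Cd79a, Mitf, Tal1, Stat5a, Itga4, Mertk and Il1rap were named outside this rule, after their values were seen. One gene that this rule names is not reported here. Group names came from the sample labels.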

Additional observations from a re-analysis of the deposited data

Results flagged for a closer look

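In WT and IRF5 KO cultures, the effect of defactinib after LPS differed for 2 of the 7 tested genes, beside 22.8% of all tested genes. This was by the test of the difference itself (edgeR's quasi-likelihood test). For Gata2 the difference was 2.53 on the log2 scale (adjusted p = 0.000146). All 3 WT libraries with defactinib were below all 3 with DMSO, whereas in IRF5 KO the libraries overlapped. For Cd200r3 the difference was -1.10 (adjusted p = 0.00939), with overlapping WT libraries and all 3 IRF5 KO libraries with defactinib below all 3 with DMSO. It was called under 24 of 27 alternatives and fell inside the fold threshold without the second WT LPS DMSO library (-0.98), without the third WT LPS defactinib library and without both libraries that stood apart (-0.95 each), with adjusted p-values from 0.000956 to 0.0322 over the alternatives. Without both libraries the genes called were Gata2 (3.27), Hdc (4.32) and Il1rl1 (-1.06), so which genes differed changed with these libraries. The share of all genes called in that fit is not given here.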

How the results depend on the processing

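Gata2 was called after LPS with DMSO, after LPS with defactinib, for defactinib in WT and for the difference between the genotypes under all 27 alternatives, and so was Il1rl1 after LPS with defactinib. The number of members called between the genotypes after LPS with DMSO was 1, and 3 by the false discovery rate alone, 2 with scaling by library size alone, 2 with limma-voom, 2 without both libraries that stood apart, and 1 to 2 with single libraries left out (2 without the third IRF5 KO LPS DMSO or the third WT LPS defactinib library). For defactinib in WT the 2 calls became 1 to 3, with 1 without the third WT LPS DMSO library or the second WT LPS defactinib library. For defactinib in IRF5 KO the 0 calls became 1 by the false discovery rate alone, 1 without both libraries, and stayed 0 with single libraries left out. For LPS in IRF5 KO the 1 call became 0 with no filter, 0 with DESeq2 (which gave Hdc no adjusted p in any comparison), 0 with only the groups compared in the fit, 2 without both libraries and 0 to 1 with single libraries left out (0 without any unstimulated IRF5 KO library). For the difference between the genotypes the 2 calls became 1 to 3, with 1 without the second WT LPS DMSO library. Between the genotypes with defactinib the 2 calls became 3 by the false discovery rate alone, and 3 without the third WT LPS defactinib library or both (Hdc added, higher in IRF5 KO). For LPS in WT the 3 calls became 2 with DESeq2, with the filter of 1 CPM in 3 libraries, and without the second unstimulated WT library, the second WT LPS DMSO library or the third WT LPS DMSO library. With all libraries, the shares of all tested genes called were 25.8% (genotype after LPS with DMSO), 17.3% (genotype with defactinib) and 29.1% (defactinib in WT). They were 0.919% (defactinib in IRF5 KO), 21.3% (LPS in WT), 13.3% (LPS in IRF5 KO) and 22.8% (difference between the genotypes). Shares under the other settings, the replicate block included, are not given. Changes in these counts are thus not read as results about the members as a group. The causes were not tested.

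Among the tested differences the direction turned 34 times, in each case for one not called with all libraries, and among the untested ones it turned for Gata2 (LPS in both genotypes), Kit (LPS in IRF5 KO) and Mcpt8 (unstimulated). For Hdc between the genotypes with defactinib it was 0.21 with the replicate block, 0.73 with limma-voom, and 1.90 and 1.92 without the third WT LPS defactinib library alone and without both, and for Hdc with defactinib in IRF5 KO 0.19 and 0.18 without the third IRF5 KO LPS DMSO library and without both. Gata2 with defactinib in IRF5 KO was 0.015 with limma-voom and 0.36 without that library or both, and Kit with defactinib in WT was 0.010 with library size alone. Cd200r3 with LPS in IRF5 KO was 0.0059 with DESeq2's size factors, 0.0025 with a filter of 1 CPM in 3 libraries, 0.0025 with DESeq2, 0.032 with only the groups compared and 0.0052 without both. Mcpt8 with LPS in WT was 0.0030 with the block and 0.20 with limma-voom, and Cpa3 for the difference between the genotypes was -0.012 with library size alone. With single libraries, or both that stood apart, left out, the ranges were -0.38 to 0.53 (Cpa3 after LPS with DMSO), -0.0062 to 0.67 (Cpa3 with defactinib), -0.31 to 0.69 (Mcpt8 with defactinib), -0.53 to 0.85 (Mcpt8, LPS in WT), -0.35 to 0.071 (Cd200r3, LPS in WT), -0.088 to 0.046 (Cd200r3, LPS in IRF5 KO), -0.88 to 1.92 (Hdc between the genotypes with defactinib), -1.25 to 0.19 (Hdc, defactinib in IRF5 KO), -0.23 to 0.36 (Gata2, defactinib in IRF5 KO) and -0.17 to 0.80 (Cpa3, difference between the genotypes).

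Library size alone shifted the median of all genes by 0.25 between the genotypes after LPS with DMSO, 0.20 for defactinib in WT, -0.38 for LPS in WT, -0.24 for LPS in IRF5 KO, -0.13 for defactinib in IRF5 KO and -0.33 for the difference between the genotypes. Deviations from the group means had a median correlation of 0.0046 over 45 pairs of same-numbered libraries in different groups. The pairs ran from -0.10 to 0.28, with 4 above 0.1. This cannot tell whether some same-numbered libraries shared a batch, and both libraries that stood apart carry the number 3. With the replicate block the calls were 1, 2, 3, 0, 3, 1 and 2 in the order genotype after LPS with DMSO, genotype with defactinib, defactinib in WT, defactinib in IRF5 KO, LPS in WT, LPS in IRF5 KO and the difference between the genotypes, and Hdc with defactinib in WT was the call gained (-2.48, adjusted p = 0.0114).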
